A study of Mus musculus with 4 samples.

Results

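The TGF-beta and BMP signalling genes described here are 51 genes chosen by symbol from the 53465 gene rows of one count table: 15 ligands, 11 receptors, 6 receptor-regulated or common Smads, 2 inhibitory Smads, 8 secreted antagonists or decoy receptors, 4 Id genes and 5 genes for latency or processing of the ligands. All 51 symbols were found. PS-RRA-mRNA-Seq, the sequencing of poly(A) mRNA from the polysome fractions of cells in which a brief harringtonine treatment had blocked new initiation so that moving ribosomes could run off, was performed in 2 control libraries and 2 HD-homo libraries. Control cells are STHdhQ7/Q7 and HD-homo cells are STHdhQ111/Q111, both immortalized mouse striatal cells of strain C57/BL6 with a knock-in Htt exon 1 that encodes 7 glutamines in the control line and 111 in the HD-homo line. All 4 libraries were from harringtonine-treated cells, and each genotype was represented by a single line, so the repeat length and any other difference between the lines cannot be told apart.

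TGF-beta superfamily ligands are secreted dimers that bring together type I and type II receptor kinases. The TGF-beta and activin branch passes its signal through Smad2 and Smad3, the BMP branch through Smad1, Smad5 and Smad9, and both use Smad4 to reach their target genes. Extracellular antagonists such as noggin, chordin and follistatin hold ligands away from their receptors, latent TGF-beta binding proteins keep TGF-beta in the matrix, and Smad6 and Smad7 shut the receptors off. In the developing forebrain BMP signals pattern the dorsal side and induce Id genes, which hold progenitors back from neuronal differentiation, and activin is used to derive striatal projection neurons from human stem cells.

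The libraries held between 12372090 and 15472808 counts. Of the 53465 gene rows, 12961 passed the filter on low counts and were tested, and 21.2% of them were called at an adjusted p under 0.05 in edgeR's quasi-likelihood test (10.4% higher and 10.9% lower in HD-homo cells). Of 10 striatal projection neuron markers, 6 were at 10 counts or fewer in every library, and these include 2 defining ones, Drd1 and Drd2, which were at 0 throughout. The summed level of all 10 was 61.4 and 66.5 CPM (each count relative to its TMM-scaled library total) in control and 152 and 124 CPM in HD-homo libraries. Foxp1, which is not particular to these neurons, made up most of that sum (55.9 and 62.5 CPM against 148 and 116 CPM). Of the 10 markers 2 were higher, Foxp1 and Ppp1r1b (4 and 4 counts in control, 14 and 20 in HD-homo libraries), and 1, Adora2a, was lower. Other marker lists moved with the genotype: the summed CPM of 4 neural progenitor markers was 187 and 253 in control against 9.03 and 8.62 in HD-homo libraries (3 of 4 lower, 0 higher), that of 6 fibroblast and mesenchyme markers was 864 and 1788 against 5243 and 5136 (4 higher, 0 lower), and that of 5 smooth muscle and pericyte markers was 4143 and 5716 against 577 and 471 (2 lower, 0 higher). Astrocyte, endothelial, oligodendrocyte and microglia lists summed to at most 4.36 CPM in any library. At these low levels Mbp (1 and 1 counts in control, 52 and 35 in HD-homo libraries) and Csf1r (6 and 8 against 23 and 18) were called higher, and 0 markers lower. The part of these differences in the results on the signalling genes was not tested. Htt itself stood at 27.1 and 28.2 CPM in control and at 8.95 and 4.16 CPM in HD-homo libraries.

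The genes called between the lines were ligands, receptors, antagonists, latency proteins and Id4. Of the Smads, 0 of 8 were called beside 21.2% of all tested genes, and 8 genes are too few to set them apart from that share. Of the 51 genes 46 were tested, and 9 of them were higher and 8 lower in HD-homo cells, which is 19.6% and 17.4% of those tested beside 10.4% and 10.9% of all tested genes. These shares of all tested genes also stand beside the counts by role given below, each of which rests on few genes. Gdf15, Fstl3, Bmp7, Tgfbr3 and Ltbp2 were the most raised on the fold scale, and Bmp2, Bambi, Id4 and Inhbb the most reduced. Of the 17 called genes 11 changed more than 4-fold, beside 1238 of the 2752 called among all tested genes. The median absolute log2 fold change of the 46 was 0.66, beside 0.34 for all tested genes, and their median signed value was -0.09. The remaining 29 tested genes were not called, and 5 were too low to test: Bmp5 and Gdf10 had 0 counts in all 4 libraries, and Gdf5, Gdf6 and Bmpr1b had at most 13 in any. At an unadjusted p under 0.05, 11 genes were higher and 10 lower (23.9% and 21.7% of those tested, beside 14.8% and 15.9% of all tested genes). Polysome mRNA of a gene depends on how many cells express it, on the RNA per cell and on how much of it is on ribosomes, and these cannot be told apart in bulk libraries.

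**Figure D1:**
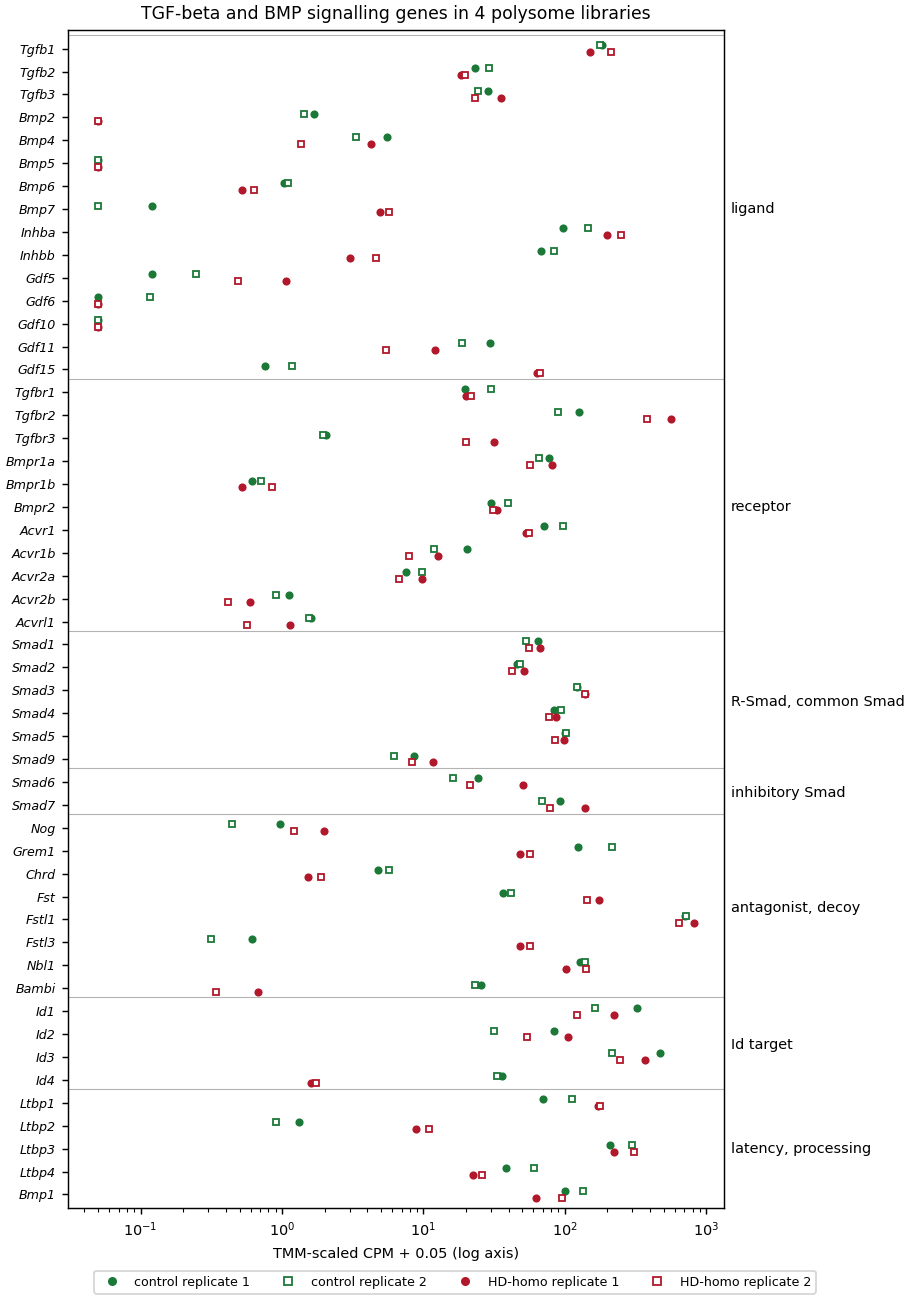
TMM-scaled CPM plus 0.05 on a log axis for the 51 genes, grouped by role, with filled circles for replicate 1 and open squares for replicate 2 (control green, HD-homo red). The receptor-regulated and common Smads sit together in both genotypes and Smad6 and Smad7 spread more, while Gdf15, Fstl3, Bambi and Id4 form separate control and HD-homo pairs.

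Among the ligands, 3 of 11 tested rose and 3 fell. Gdf15, a divergent family member whose expression is raised by many kinds of cell stress, stood at 0.707 and 1.12 CPM in the control libraries and at 63.1 and 66.2 CPM in the HD-homo libraries. Both HD-homo libraries lay far above both control libraries. The log2 fold change was 6.13 (SE 0.32, edgeR adjusted p = 2.5e-08, n = 2 per genotype).

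The BMP ligand genes Bmp2 and Bmp7 moved in opposite directions, both at low levels. Bmp7 had 1 and 0 counts in control and 63 and 77 counts in HD-homo libraries. Its pooled count ratio was 155 (95% counting interval 27.3 to 6160), 74.6 without control replicate 2 (13.2 to 2966), and at least 26.8 without control replicate 1. For Bmp2 the order was the opposite, with 23 and 21 counts in control and 0 and 0 in HD-homo libraries. Taken against the 3 counts per group that a count of 0 allows, Bmp2 was at least 13.3-fold lower in HD-homo cells, and at least 6.84-fold or 6.42-fold lower when HD-homo replicate 1 or replicate 2 was left out. Both genes passed the test (edgeR adjusted p = 4.18e-06 for Bmp7 and 0.000252 for Bmp2), and these intervals and limits cover counting error only.

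The activin subunits moved apart. Inhbb, which encodes the beta B subunit of activins and inhibins, was measured at 67.8 and 83.6 CPM in control libraries and at 2.96 and 4.6 CPM in HD-homo libraries. The genotypes did not overlap, and the log2 fold change was -4.32 (SE 0.29, edgeR adjusted p = 1.87e-07). Inhba, the gene of the beta A subunit, was at 96.3 and 147 CPM in control and at 197 and 248 CPM in HD-homo libraries. Here too the HD-homo libraries were the 2 higher ones, but by less (log2 fold change 0.87, SE 0.24, edgeR adjusted p = 0.0177). The call on Inhba was lost without control replicate 1 (0.60, adjusted p = 0.227) and without HD-homo replicate 2 (0.70, adjusted p = 0.0595). Per kb of exon, the scale on which genes can be set against each other, Inhba made up 48.6% and 53.9% of the 2 beta subunit mRNAs in control libraries and 97.8% and 97.3% in HD-homo libraries. Their summed level was 31.0 and 42.6 CPM per kb in control and 31.5 and 39.9 CPM per kb in HD-homo libraries, so that the composition differed while the sums overlapped.

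Gdf11, a ligand closely related to myostatin, stood at 29.5 and 18.8 CPM in control and at 12.1 and 5.4 CPM in HD-homo libraries. Both HD-homo values were below both control values (log2 fold change -1.47, SE 0.35, edgeR adjusted p = 0.00803). Over the alternative settings listed under processing, the log2 fold change ran from -2.14, without HD-homo replicate 1, to -0.999.

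The 3 TGF-beta genes were present and none was called. Tgfb1 was measured at 184 and 178 CPM in control and at 151 and 211 CPM in HD-homo libraries, so that the HD-homo values lay on either side of the control values. Tgfb2 gave 23.3 and 29.0 CPM in control against 18.4 and 19.6 CPM in HD-homo libraries. Tgfb3 gave 28.6 and 24.3 CPM against 35.2 and 23.0 CPM. Only the Tgfb2 values were apart between genotypes. The 95% intervals of the log2 fold changes ran from -0.47 to 0.47 for Tgfb1, from -0.97 to 0.06 for Tgfb2 and from -0.42 to 0.70 for Tgfb3. On the per kb scale, Tgfb1 accounted for 68.8% to 80.4% of the 3 TGF-beta mRNAs in all 4 libraries.

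Bmp4, a BMP of the dorsal forebrain and of many mesenchymal tissues, was at 5.52 and 3.28 CPM in control and at 4.2 and 1.31 CPM in HD-homo libraries. The genotypes overlapped and the gene was not called (log2 fold change -0.68, SE 0.46, edgeR adjusted p = 0.369). Without HD-homo replicate 1, the higher of the 2 HD-homo libraries, it was called at -1.72 (adjusted p = 0.0102). Bmp6, another BMP, was at most 1.05 CPM in any library and was not called.

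Among the receptors, 2 of 10 tested rose and 0 fell in edgeR's test, beside 10.4% and 10.9% of all tested genes. So few genes cannot be set apart from these shares. DESeq2 and limma-voom gave the same counts, and 1 receptor was lower at an unadjusted p under 0.05 in edgeR's test. The 2 that rose are both receptors for TGF-beta itself. Tgfbr2, the type II kinase that binds TGF-beta and activates Tgfbr1, stood at 125 and 89.1 CPM in control and at 563 and 378 CPM in HD-homo libraries. The lowest HD-homo value was well above the highest control value (log2 fold change 2.13, SE 0.26, edgeR adjusted p = 3.54e-05). Tgfbr3, or betaglycan, a co-receptor that presents TGF-beta2 and also binds inhibin, was measured at 1.98 and 1.9 CPM in control and at 31.3 and 20.1 CPM in HD-homo libraries. It was low and even in control libraries and far higher in both HD-homo libraries (log2 fold change 3.72, SE 0.32, adjusted p = 1.78e-06). The partner type I kinase Tgfbr1 gave 19.7 and 29.8 CPM in control and 20.0 and 21.5 CPM in HD-homo libraries, which overlapped (log2 fold change -0.25, SE 0.26, adjusted p = 0.569). Tgfbr2, set per kb of exon, made up 82.5% and 72.4% of the mRNAs of the 4 type II receptors (Tgfbr2, Bmpr2, Acvr2a and Acvr2b) in control and 94.9% and 93.9% in HD-homo libraries, and the sum of the 4 went from 18.6 and 15.02 CPM per kb to 72.4 and 49.2 CPM per kb.

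Receptors of the BMP and activin branches were not called. Bmpr1a, a type I BMP receptor, gave 77.5 and 65.1 CPM in control and 81.1 and 56.6 CPM in HD-homo libraries. Bmpr2, its type II partner, gave 29.9 and 39.8 CPM in control and 33.1 and 31.0 CPM in HD-homo libraries. Both sets overlapped, with log2 fold changes of -0.05 (95% interval -0.55 to 0.45) and -0.12 (-0.62 to 0.39). The activin and BMP type I receptor gene Acvr1 came closest to the threshold, at 71.4 and 97.5 CPM in control and 52.8 and 55.9 CPM in HD-homo libraries (log2 fold change -0.64, SE 0.22, adjusted p = 0.0601). It was called when control replicate 1 was left out (-0.84, adjusted p = 0.0332), while Acvr1b, the activin type I receptor, with -0.65 (adjusted p = 0.188) over all libraries, was called at -0.995 (adjusted p = 0.0179) on leaving out control replicate 2 and at -1.01 (adjusted p = 0.0409) on leaving out the HD-homo library of number 1. The other 3 tested receptor genes, Acvr2a, Acvr2b and Acvrl1, had log2 fold changes from -1.06 to -0.07.

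**Figure D2:**
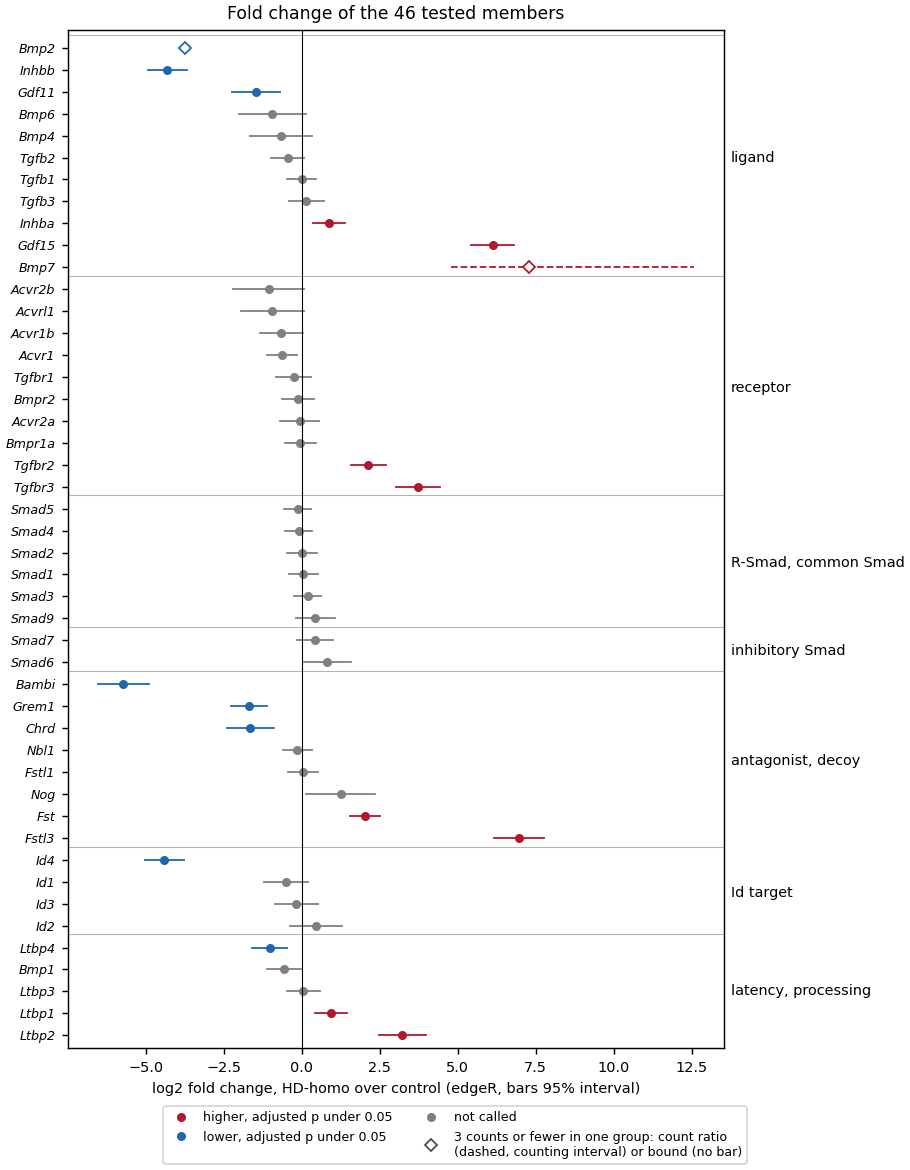
Log2 fold change (HD-homo over control) of the 46 tested genes by role, with 95% intervals from edgeR, and, for Bmp2 and Bmp7, the bound or the count ratio with its counting interval. Point estimates of the 8 Smads and the TGF-beta ligands stay within 1 of 0 and none is called, but the intervals of Smad6, Smad7 and Smad9 pass 1. Called genes such as Gdf15 and Fstl3 reach beyond 6.

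Of the 8 Smads 0 were called in either direction in edgeR's test (beside 21.2% of all tested genes), in DESeq2 or in limma-voom. At an unadjusted p under 0.05 in edgeR 1 was higher, Smad6, and 0 were lower, beside 14.8% and 15.9% of all tested genes. Of the TGF-beta and activin Smads, Smad2 gave 45.6 and 47.9 CPM in control and 51.5 and 42.0 CPM in HD-homo libraries. Smad3 gave 122 and 122 CPM in control and 139 and 138 CPM in HD-homo libraries, a small separation without a call (log2 fold change 0.19, 95% interval -0.24 to 0.61, adjusted p = 0.586). For Smad4, the shared partner, the values were 83.5 and 93.6 CPM in control and 87.1 and 77.6 CPM in HD-homo libraries. Both sets overlapped, and the 95% intervals of the log2 fold changes ran from -0.47 to 0.47 for Smad2 and from -0.55 to 0.34 for Smad4.

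On the BMP branch, Smad1 gave 65.0 and 53.3 CPM in control and 66.5 and 55.9 CPM in HD-homo libraries. Smad5 gave 99.5 and 102 CPM in control and 98.5 and 85.0 CPM in HD-homo libraries. Neither was called, with intervals from -0.42 to 0.52 and from -0.57 to 0.30. Smad9 was 6.17 to 11.7 CPM over the 4 libraries and was not called either (log2 fold change 0.44, 95% interval -0.20 to 1.07). Over the 6 receptor-regulated and common Smads, log2 fold changes ran from -0.13 to 0.44.

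The inhibitory Smads, which are induced by the pathway and restrain it, were more variable. Smad6, which acts mainly on BMP receptors, stood at 24.4 and 16.1 CPM in control and at 50.3 and 21.4 CPM in HD-homo libraries. Smad7, which acts on TGF-beta receptors too, stood at 92.6 and 68.8 CPM in control and at 139 and 78.9 CPM in HD-homo libraries. In both genes HD-homo replicate 1 was the highest library and HD-homo replicate 2 fell among the control values. Neither was called (log2 fold change 0.82, SE 0.35, adjusted p = 0.127 for Smad6, and 0.44, SE 0.27, adjusted p = 0.314 for Smad7). Smad6 was called without control replicate 1 (1.15, adjusted p = 0.00566), without HD-homo replicate 2 (1.31, adjusted p = 0.00118) and without the filter on low counts (0.83, adjusted p = 0.012), and Smad7 without HD-homo replicate 2 (0.79, adjusted p = 0.0286).

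Among the antagonists and the decoy receptor, 2 of 8 rose and 3 fell. The risers were both follistatins, which bind activins and related ligands with high affinity. Fstl3, or follistatin-like 3, was measured at 0.566 and 0.263 CPM in control and at 48.3 and 56.2 CPM in HD-homo libraries, and Fst, follistatin, at 36.6 and 41.6 CPM and at 175 and 144 CPM. No control library reached an HD-homo library in either gene. The log2 fold changes were 6.96 (SE 0.37, edgeR adjusted p = 2.89e-08) for Fstl3 and 2.03 (SE 0.22, adjusted p = 1.15e-05) for Fst. For Fstl3 the alternative settings gave 6.50 to 7.59, the highest without control replicate 1. Per kb of exon, the summed follistatin mRNA was 8.22 and 9.17 CPM per kb in control and 57.8 and 54.4 CPM per kb in HD-homo libraries, and the Fstl3 share of it was 2.82% and 1.17% against 34.2% and 42.3%. The summed activin beta subunits overlapped between genotypes on that scale, as given above. Of the Fstl3 exon bases, 47.3% lie opposite exons of Prss57 on the other strand, and Prss57 had at most 3 counts in any library.

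**Figure D3:**
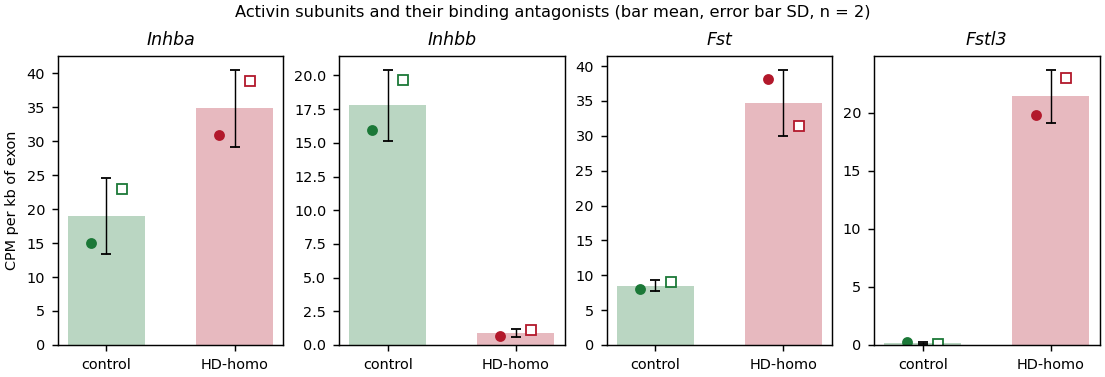
CPM per kb of exon for the activin subunit genes Inhba and Inhbb and for Fst and Fstl3 in each library (bars are means, error bars SD, n = 2 per genotype, each panel with its own axis from 0). Inhbb is nearly absent from HD-homo libraries, while Fst and Fstl3 stand well above the control libraries.

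Of the 4 antagonists of BMPs, 2 fell. Grem1, or gremlin 1, which binds Bmp2 and Bmp4, stood at 123 and 217 CPM in control and at 48.0 and 56.5 CPM in HD-homo libraries. Chrd, or chordin, was lower in level, at 4.74 and 5.65 CPM in control and 1.48 and 1.83 CPM in HD-homo libraries. In both genes each HD-homo library was below each control library, with log2 fold changes of -1.70 (SE 0.26, adjusted p = 0.000314) and -1.65 (SE 0.34, adjusted p = 0.00293). Nog, which encodes noggin, was at most 1.95 CPM in any library and was not called (log2 fold change 1.24, 95% interval 0.13 to 2.36, adjusted p = 0.116). Nbl1, a relative of gremlin, was 101 to 141 CPM over the 4 libraries and was not called. Per kb of exon, the 4 BMP antagonists summed to 93.5 and 122 CPM per kb in control and to 62.9 and 83.7 CPM per kb in HD-homo libraries. The Grem1 share of that sum was 31.7% and 42.8% in control and 18.4% and 16.3% in HD-homo libraries, and Nbl1 was the larger part in all 4. Fstl1, a secreted glycoprotein related to follistatin, was at 642 to 826 CPM in all libraries and was not called.

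Bambi, a decoy receptor that resembles a type I receptor but lacks the kinase, was measured at 25.4 and 23.2 CPM in control and at 0.622 and 0.292 CPM in HD-homo libraries. Only 8 and 4 counts were left in the HD-homo libraries. The log2 fold change was -5.72 (SE 0.38, edgeR adjusted p = 1.65e-07). It ran from -6.32, without HD-homo replicate 1, to -5.27 over the alternative settings.

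Id genes encode inhibitors of basic helix-loop-helix factors and are classic targets of BMP signalling, and 1 of 4 was called. Id4, which is known from neural progenitors, stood at 36.1 and 32.9 CPM in control and at 1.56 and 1.68 CPM in HD-homo libraries. The values within each genotype were close and those of the 2 genotypes far apart (log2 fold change -4.41, SE 0.29, edgeR adjusted p = 1.7e-07). The neural progenitor markers were lower in the same libraries, by the summed levels given above.

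Id1, Id2 and Id3 followed the library number more than the genotype. Id1 gave 325 and 164 CPM in control and 223 and 121 CPM in HD-homo libraries. Id2 gave 83.8 and 31.7 CPM in control and 105 and 53.8 CPM in HD-homo libraries. Id3 gave 471 and 217 CPM in control and 367 and 244 CPM in HD-homo libraries. In each of the 3 genes replicate 1 was the higher library in both genotypes, and the genotypes overlapped. None was called (log2 fold changes -0.51, 0.46 and -0.17, with adjusted p of 0.333, 0.481 and 0.777 in edgeR's test). The outcome for Id1 and Id2 changed when a library was left out: Id1 was called without control replicate 2 (-0.92, adjusted p = 0.0202) and without HD-homo replicate 1 (-0.996, adjusted p = 0.00897), and Id2 without control replicate 1 (1.33, adjusted p = 0.00072). By length-scaled level (CPM per kb), Id1 and Id3 together made up most of the Id mRNA in every library, and the Id4 share was 1.6% and 3.01% in control against 0.0918% and 0.166% in HD-homo libraries.

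**Figure D4:**
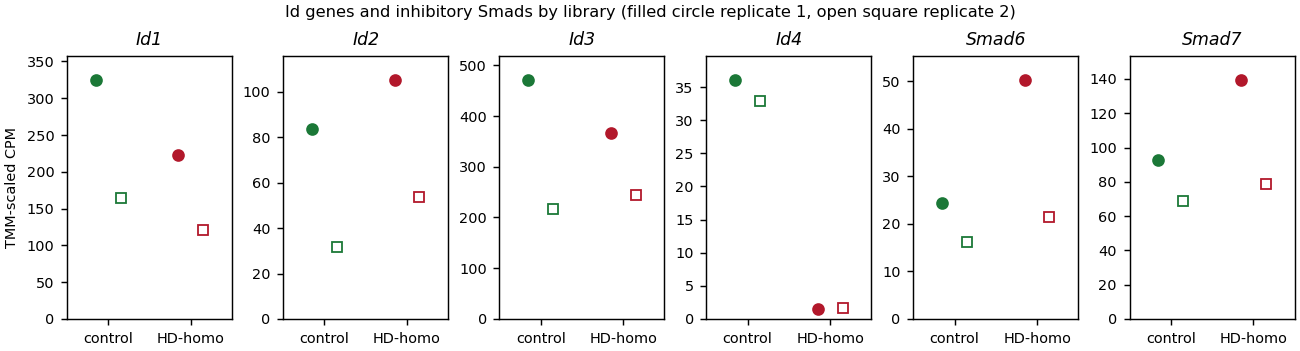
TMM-scaled CPM of Id1, Id2, Id3, Id4, Smad6 and Smad7 in each library, with filled circles for replicate 1 and open squares for replicate 2, each panel with its own axis from 0. Replicate 1 lies above replicate 2 in both genotypes for Id1, Id2, Id3, Smad6 and Smad7, whereas Id4 separates by genotype.

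The difference between same-numbered libraries was not limited to the Id genes. Of the 46 tested genes, 8 were more than 1.5-fold higher in replicate 1 than in replicate 2 in both genotypes (17.4%, beside 3.01% or 390 of all tested genes), and 0 were higher in replicate 2 by that measure, beside 365 of all tested genes. They were Id1, Id2, Id3, Smad6, Bmp4, Nog, Gdf11 and Acvr1b. The ratio of replicate 1 to replicate 2 was 1.98 in control and 1.84 in HD-homo libraries for Id1, 2.65 and 1.96 for Id2, 2.17 and 1.5 for Id3, and 1.52 and 2.35 for Smad6. Several of these genes are known as BMP targets or parts of the BMP branch, while Acvr1b is the activin type I receptor and Gdf11 a relative of myostatin. What set the replicates apart was not tested. The measure was chosen after the values of Id1, Id2 and Id3, which are among the 8, were seen. The labels do not say that a number marks a shared day or batch.

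The promoters of Grem1, Chrd and Id4, which fell, and of Fstl3, the called gene with the largest fitted rise, are shown. GGCGCC, the core letters of a BMP responsive element described in the Id1 promoter, occurs in the first 3 windows and not in the last. These windows were picked by outcome and do not stand for the other genes. The choice also favours the match among genes that fell. Windows of Inhbb and Gdf11, which lack it, are not shown, nor are those of Ltbp4, of which some hold it. Each window holds the 250 bases before and the 50 bases from the annotated start in RefSeq (GRCm38.p6), read 5′ to 3′ on the gene's strand, with the match in capitals. They lie at chr2:113758599-113758898 (minus strand) for Grem1, chr16:20732877-20733176 (plus strand) for Chrd, chr13:48260866-48261165 (plus strand) for Id4 and chr10:79777024-79777323 (plus strand) for Fstl3.
Grem1: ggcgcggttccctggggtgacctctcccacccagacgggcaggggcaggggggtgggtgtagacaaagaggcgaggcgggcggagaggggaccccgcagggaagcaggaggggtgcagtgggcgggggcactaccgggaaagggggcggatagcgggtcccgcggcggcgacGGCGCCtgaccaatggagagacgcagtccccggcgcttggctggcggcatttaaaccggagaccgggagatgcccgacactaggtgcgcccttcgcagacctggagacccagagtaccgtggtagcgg
Chrd: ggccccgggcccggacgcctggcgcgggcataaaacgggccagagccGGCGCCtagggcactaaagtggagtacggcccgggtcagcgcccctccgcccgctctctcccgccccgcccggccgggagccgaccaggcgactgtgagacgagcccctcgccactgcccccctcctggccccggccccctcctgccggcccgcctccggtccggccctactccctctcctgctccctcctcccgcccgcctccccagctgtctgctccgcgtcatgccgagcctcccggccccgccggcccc
Id4: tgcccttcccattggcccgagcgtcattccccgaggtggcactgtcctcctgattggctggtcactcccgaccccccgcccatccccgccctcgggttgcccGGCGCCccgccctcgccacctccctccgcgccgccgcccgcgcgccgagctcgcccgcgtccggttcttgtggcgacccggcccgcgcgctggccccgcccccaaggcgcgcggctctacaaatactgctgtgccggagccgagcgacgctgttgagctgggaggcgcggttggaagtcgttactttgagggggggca
Fstl3: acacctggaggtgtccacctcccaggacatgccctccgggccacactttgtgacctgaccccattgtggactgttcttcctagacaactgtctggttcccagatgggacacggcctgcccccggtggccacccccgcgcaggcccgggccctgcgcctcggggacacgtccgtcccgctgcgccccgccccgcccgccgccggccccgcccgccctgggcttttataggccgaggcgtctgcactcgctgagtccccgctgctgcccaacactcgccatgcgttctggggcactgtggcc
Counted from the start, the match begins at -78 in Grem1, -203 in Chrd and -148 in Id4. RefSeq windows were matched for 36 of the 51 genes. GGCGCC, which reads the same on both strands, was in 15 of their 45 windows (33.3%), beside 3898 of 32851 mouse windows of that length (11.9%), and in at least 1 window of 13 genes. By call, these were 4 of the 6 matched genes that fell, 0 of the 6 that rose, 8 of the 21 that were not called and 1 of the 3 not tested. Inhbb and Gdf11 fell without a match. The median GC content of the windows was 75.8% for the genes that fell and 57.8% for those that rose, so over these groups the letters and the base composition moved together. Single windows departed from this: Grem1 and Fstl3 both had 70.7% GC, and Gdf11 had 80.7%. The part of base composition was not tested. The Smad box palindrome GTCTAGAC (also its own reverse complement) was in 1 of the 45 windows, that of Smad6, which holds no GGCGCC, where it begins at -4, and in 70 of 32851 windows overall (0.213%).

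Among the genes for latency and processing, 2 of 5 rose and 1 fell. Ltbp2, a matrix protein that belongs to the latent TGF-beta binding protein family but does not bind latent TGF-beta, stood at 1.27 and 0.854 CPM in control and at 8.87 and 11.0 CPM in HD-homo libraries. The genotypes were well apart (log2 fold change 3.22, SE 0.35, edgeR adjusted p = 1.41e-05). Of its exon bases 9.3% lie opposite the antisense gene D030025P21Rik, which had 2 and 0 counts in control and 30 and 29 in HD-homo libraries. Ltbp1, which anchors latent TGF-beta in the matrix, was measured at 70.4 and 112 CPM in control and at 171 and 177 CPM in HD-homo libraries. Ltbp4, a binding protein of elastic tissue, was at 38.3 and 60.4 CPM in control and at 22.3 and 26.0 CPM in HD-homo libraries. Both were without overlap between genotypes, in opposite directions, and both calls rested on single libraries. Ltbp1 had a log2 fold change of 0.94 (SE 0.24, adjusted p = 0.0108), and 0.64 (adjusted p = 0.180) without control replicate 1. Ltbp4 had -1.03 (SE 0.26, adjusted p = 0.0105), and -0.66 (adjusted p = 0.157) without control replicate 2.

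In CPM per kb, Ltbp3, a binding protein of latent TGF-beta in bone and other tissues, was the most abundant of the 4 in every library (54.3% to 64.7%) and was not called. The Ltbp1 share was 18.4% and 19.8% in control and 35.6% and 29.7% in HD-homo libraries, and the Ltbp4 share 16.5% and 17.7% against 7.67% and 7.23%. Bmp1, which despite its name is a metalloprotease that cleaves chordin and procollagens, gave 99.9 and 135 CPM in control and 62.2 and 95.6 CPM in HD-homo libraries. It was not called (log2 fold change -0.57, SE 0.25, adjusted p = 0.132), and was called without HD-homo replicate 2 (-0.92, adjusted p = 0.0169).

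The wider pathway was read from a further 87 genes, of which 59 were tested. Of these, 12 rose (20.3%) and 16 fell (27.1%), beside 10.4% and 10.9% of all tested genes. The same shares stand beside the counts by role that follow, each of which rests on few genes. Of 20 intracellular modulators 18 were not called, and the 2 that rose, named after their values were seen, were the ubiquitin ligases Smurf1 (126 and 115 CPM in control and 249 and 281 CPM in HD-homo libraries, log2 fold change 1.14, adjusted p = 0.000912) and Smurf2 (43.6 and 52.9 CPM in control and 88.5 and 84.0 CPM in HD-homo libraries, log2 fold change 0.84, adjusted p = 0.0112), which mark receptors and Smads for degradation. Among factors that activate or hold latent TGF-beta, 1 of 6 rose and 4 fell, and among other secreted antagonists and matrix modulators 4 of 10 rose and 3 fell.

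Lrrc32, whose product GARP docks latent TGF-beta at the cell surface, stood at 0.141 and 0.131 CPM in control and at 55.9 and 72.4 CPM in HD-homo libraries. That was the largest fitted rise of the wider list (log2 fold change 8.79, SE 0.40, edgeR adjusted p = 9.76e-09). Its size rests on only 2 and 2 counts in the control libraries, against 719 and 991 in the HD-homo libraries. Fbn2, a fibrillin of the microfibrils that store ligands, had 0 and 2 counts in control and 123 and 140 counts in HD-homo libraries, a count ratio of 146 (95% counting interval 39.9 to 1207), 75.4 without control replicate 1 and at least 46.7 without control replicate 2. The chordin-cleaving protease gene Tll1 rose as well, from 0.778 and 1.58 CPM to 16.03 and 19.4 CPM (log2 fold change 3.89, SE 0.35). Its value ran from 3.49 to 4.49 over the alternative settings. The proteoglycan gene Dcn, whose product binds TGF-beta, rose from 0.707 and 0.919 CPM to 8.79 and 9.57 CPM (3.48, SE 0.35). Dcn is also among the fibroblast and mesenchyme markers that were higher in HD-homo libraries. Bmper, a chordin-related BMP regulator, fell from 30.6 and 39.4 CPM in control to 2.8 and 1.61 CPM in HD-homo libraries (log2 fold change -3.99, SE 0.32). The ligand gene Bmp8b went from 66 and 70 counts to 0 and 2, a ratio of 61.5 in favour of control (16.7 to 513), 31.7 without HD-homo replicate 1 and at least 19.8 without HD-homo replicate 2.

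Known target genes moved in both directions. Of 12 targets of TGF-beta 3 rose and 4 fell, and of 5 tested targets of BMP 3 fell and 0 rose in edgeR's test. For the targets of BMP, DESeq2 called 2 lower and 1 higher, and limma-voom 3 lower and 0 higher. At an unadjusted p under 0.05 in edgeR's test 3 of them were lower and 1 higher. Tgfbi, a matrix protein named for its induction by TGF-beta, was at 1.91 and 1.51 CPM in control and at 74.1 and 83.4 CPM in HD-homo libraries (log2 fold change 5.52, SE 0.29, edgeR adjusted p = 2.5e-08). Tsc22d1, another gene found through its induction by TGF-beta, ran the other way, at 1265 and 1067 CPM against 191 and 184 CPM (log2 fold change -2.64, SE 0.22). Acta2, smooth muscle actin, was at 3772 and 5169 CPM in control and at 430 and 333 CPM in HD-homo libraries (log2 fold change -3.55, SE 0.27), and it makes up most of the smooth muscle and pericyte marker sum. Msx1, a homeobox gene induced by BMPs, fell from 40.1 and 33.4 CPM to 7.94 and 8.11 CPM (log2 fold change -2.19, SE 0.25).

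**Figure D5:**
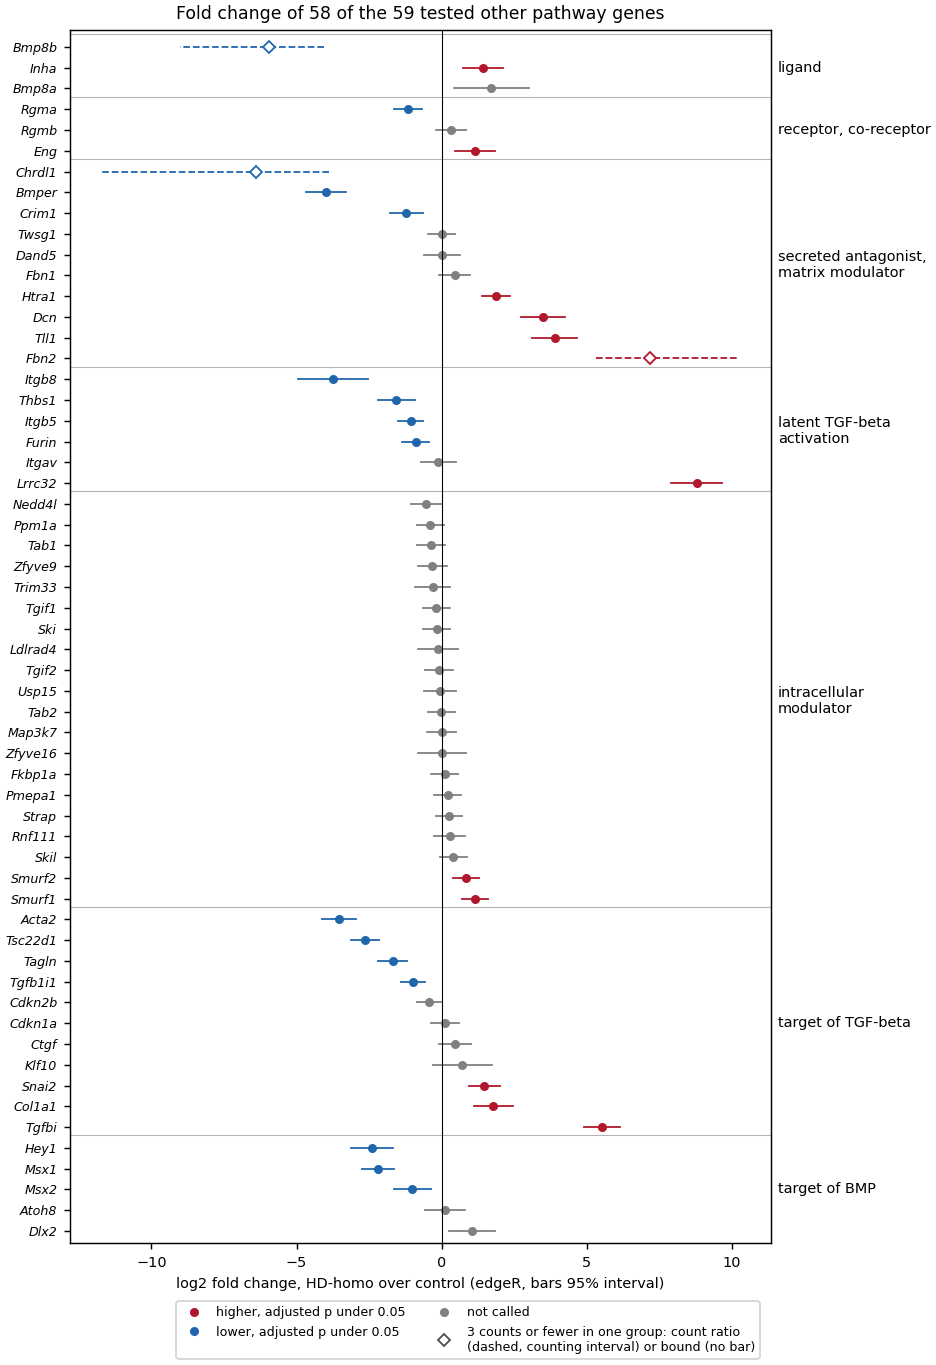
Log2 fold change (HD-homo over control) of 58 of the 59 tested genes of the wider pathway list by role, with 95% intervals from edgeR, and count ratios with counting intervals for Bmp8b, Chrdl1 and Fbn2. Intracellular modulators lie near 0 apart from Smurf1 and Smurf2, and calls in both directions lie among the secreted, matrix and target genes.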

How the data were processed

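Poly(A) mRNA from polysome fractions of harringtonine-treated cells was sequenced in 4 libraries, 2 control and 2 HD-homo. The authors deposited raw counts per gene: per the submitters' processing notes and the methods, reads were trimmed with cutadapt, rRNA and tRNA reads were removed with Bowtie 1.1.2, and genes were quantified with RSEM 1.3.0 on GRCm38.p5. The sources used here do not state how RSEM estimates became whole numbers or which strand setting was applied, so reads of overlapping genes on opposite strands may be shared. A deposited sheet of scaled counts was not used.

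Counts were tested with edgeR 4.0.16 in R 4.3.3 (TMM scaling, filterByExpr, quasi-likelihood F test, group only), and Benjamini-Hochberg adjustment ran over all 12961 tested genes with a threshold of 0.05. Levels are TMM-scaled CPM, with exon lengths from GENCODE M21 (GRCm38, by gene ID) where genes were compared. SE was derived from the F statistic, and 95% intervals used its degrees of freedom. Groups with 3 counts or fewer in total were compared by count ratios with exact 95% binomial intervals, or by a bound at 3 counts per group. Names follow one rule: every called gene, a set of core ligands, receptors, Smads and Id genes whatever their test gave, and the 5 lowest p in each direction among other pathway genes. Names outside it (Smurf1, Smurf2, Inha, Eng and Rgma) were chosen after their values were seen. One item of the wider list is counted but not reported here. The genes and lists were chosen with earlier results of these data known. The procedures were tested on simulated data with known fold changes.

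Library totals were 12372090 to 15472808 counts, and 1 count was 0.0657 to 0.0778 CPM. The biological coefficient of variation was 17.8%, and the replicates differed by far more than counting noise (chi-square per degree of freedom 29 and 30.5). The study describes the libraries of a group as independent experiments, and the labels name no separate cultures, so p-values measure the spread between these libraries. An exact permutation test of 2 against 2 libraries cannot go below p = 0.33, so single values were not tested that way. Alternatives were other scalings, filters, thresholds, DESeq2 1.42.0, limma-voom 3.58.1, a replicate block and leaving out each library.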

Additional observations from a re-analysis of the deposited data

How the results depend on the processing

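With 2 libraries per genotype, each value leans on single libraries, and with 1 library left in a genotype the spread is assumed to be that of the other. Depth limits Bmp2, Bmp7, Fstl3, Bambi, Bmp6, Nog, Acvr2b and Acvrl1, which had fewer than 10 counts in at least 1 library. The same holds for Lrrc32, Fbn2, Bmp8b and Chrdl1 of the wider list. Of 200 values of the called genes under other scalings, filters, tools, the block and left-out libraries, 196 kept their direction and side of the threshold, 4 lost the call (Inhba, Ltbp1 and Ltbp4 with 1 library left out, as given above) and 0 reversed. A filter of at least 10 counts in every library gave no value for Bmp2, Bmp7, Fstl3 and Bambi, and a threshold of 0.01, which is not among the 200, also lost Inhba, Ltbp1 and Ltbp4. Across scalings, filters, tools and thresholds, apart from the block, 7 to 11 genes were higher and 6 to 8 lower, and leaving out 1 library gave 9 to 11 higher and 9 to 11 lower. In the wider list these alternatives called 10 to 15 genes higher and 13 to 16 lower. The median log2 fold change of all tested genes moved by less than 0.1 under every scaling.

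With the replicate number as a block, 13 genes were higher and 13 lower (17 and 19 in the wider list), and the calls over all tested genes went up with them, to 16.4% higher and 18.1% lower. The block also called Bmp4, Acvr1, Acvr1b, Bmp1 and Id1 (lower) and Smad6, Smad7, Nog and Id2 (higher). Deviations of same-numbered libraries had a correlation of 0.33 over genes, but there are only 2 pairs and the labels name no shared batch, so the libraries share a number and the pairing is not established.

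Of the uncalled genes 15 changed sign in at least 1 alternative, with an adjusted p of at least 0.375 each time; among them Id1, Id2 and Smad7 had log2 fold changes of -0.51, 0.46 and 0.44 with all libraries. Smad2 had log2 fold changes of 0.00071 with RLE scaling, 0.0048 with the upper quartile, 0.024 with totals only, 0.0092 without a filter, 0.00021 with at least 10 counts in every library and 0.00068 in DESeq2. Tgfb1 had -0.017 in limma-voom and -0.016 with the block. Leaving out 1 library gave log2 fold changes from -0.25 to 0.24 for Tgfb1, -0.18 to 0.42 for Tgfb3, -0.52 to 0.072 for Tgfbr1, -0.32 to 0.19 for Bmpr1a, -0.31 to 0.10 for Bmpr2, -0.34 to 0.17 for Acvr2a, -0.090 to 0.20 for Smad1, -0.14 to 0.14 for Smad2, -0.016 to 0.79 for Smad7, -0.14 to 0.21 for Fstl1, -0.39 to 0.091 for Nbl1, -0.996 to 0.069 for Id1, -0.084 to 1.33 for Id2, -0.63 to 0.49 for Id3 and -0.20 to 0.33 for Ltbp3. The cause of these changes was not tested.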

Other observations

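In the wider list, the inhibin alpha subunit gene Inha, whose product pairs with a beta subunit to form inhibin in place of activin, had 28 and 37 counts in control and 72 and 85 counts in HD-homo libraries. Its log2 fold change was 1.42 (SE 0.32, edgeR adjusted p = 0.00516). Inha, Eng and Rgma were singled out after their values were seen. The co-receptor genes Eng, or endoglin, which assists TGF-beta and Bmp9 signalling, and Rgma, which assists BMP signalling, moved apart: Eng stood at 4.1 and 5.19 CPM in control and 7.78 and 12.8 CPM in HD-homo libraries (log2 fold change 1.14, adjusted p = 0.0178), and Rgma at 67.6 and 72.2 CPM against 28.3 and 33.9 CPM (-1.17, adjusted p = 0.00136).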
